A study of Oryctolagus cuniculus with 6 samples.

Results

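The DLK1-DIO3 locus is an imprinted domain that carries one of the largest miRNA clusters of placental mammals. Its members were taken from the deposited table by name, as every row of a miRNA known from this domain in mammals, with both arms of a hairpin kept as separate members. This gave 59 of the 467 miRNAs in the table, from 35 hairpins, for 31 of the 44 names looked for. The names without a row were miR-300, miR-369, miR-380, miR-412, miR-431, miR-493, miR-494, miR-543, miR-544, miR-665, miR-668, miR-770 and miR-1185, which were not analysed here.

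The libraries came from hypertrophic ear scars of New Zealand White rabbits, all female, in a model where full-thickness wounds heal into raised scars. A saline group and an ADSC-Exos group had 3 libraries each, all taken at day 21. ADSC-Exos are exosomes, the vesicles that cells release, here from adipose-derived stem cells and applied at 100 µg in 2 ml. Application was limited to the first 3 days per the design text but lasted 21 days per the sample labels, and no age or genetic change is stated. Each group had 3 rabbits, but nothing says that each library is a separate rabbit, so the p-values cover the spread between libraries only, which may be technical. Values are deposited CPM, in which read counts are divided by the total of their library and so put on one scale. The steps between low values place the totals at 2260645 to 5102405 reads per library, so that 1 read was worth 0.196 to 0.442 CPM. Levels of different miRNAs also reflect how well each sequence is captured by adaptor ligation. In these bulk samples, fewer cells of a type and less RNA per cell cannot be told apart.

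In this domain the protein genes DLK1, RTL1 and DIO3 are expressed from the paternal chromosome, whereas the non-coding RNAs, including the miRNAs, come from the maternal one. The miRNAs fall into a group close to DLK1, part of it antisense to RTL1, and a longer distal group named after miR-379 and miR-410. They are known mainly from embryo, placenta and brain, and in mouse the domain's RNAs mark fully reprogrammed stem cells. In mouse, miR-127 and its neighbours direct cleavage of the Rtl1 transcript.

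The RefSeq annotation of assembly mOryCun1.1 lists 36 miRNA genes with a rabbit miRNA name (ocu-mir) between DLK1 and DIO3. Of these, 35 had a row in the table, and genes without such a name were not counted. All 59 members matched a gene there, and miR-433, miR-127, miR-432 and miR-136 lay within the span of RTL1, in that order from the DLK1 side. Only the order of the genes was used, since the sources used here do not give the build behind the deposited table.

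The locus took a small and even part of the scar miRNAs. Its members together made up 0.337%, 0.257% and 0.342% of saline libraries 1, 2 and 3 and 0.267%, 0.271% and 0.358% of ADSC-Exos libraries 1, 2 and 3. The groups overlapped, and the mean summed level was 3118 ± 477 CPM in saline against 2988 ± 514 CPM in ADSC-Exos (n = 3 each, SD), a ratio of 0.958. The distal group, with 48 members, supplied 2160 ± 292 CPM in saline against 2120 ± 457 CPM in ADSC-Exos (n = 3 each, SD). The proximal group, with 11 members, supplied 959 ± 187 CPM in saline against 868 ± 69.7 CPM in ADSC-Exos (n = 3 each, SD). Of the proximal level, 947 ± 185 CPM in saline against 862 ± 71.3 CPM in ADSC-Exos (n = 3 each, SD) came from the 7 members whose hairpins lie within RTL1.

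Levels along the locus were very uneven, although the hairpins lie close together. miR-379-5p, the first of the distal group, was the highest member and stood at place 51 among the 467 miRNAs. It was followed by miR-127-3p at place 65, miR-411-5p at place 74, miR-381-3p at place 91 and miR-432-5p at place 101. The 4 highest members took 76.9% to 82.5% of the level of the locus. At the other end, 27 members averaged under 1 CPM and 19 had no more than 3 reads in any library. A member at 0 in a library is only limited to 3 reads, which is 0.588 to 1.33 CPM depending on the library, and these limits cover counting error only. High and near-absent hairpins were neighbours. miR-433, beside miR-127, summed to 0.417 CPM over both arms against 626 CPM for miR-127. miR-410, which gives the distal group part of its name, summed to 0.200 CPM, whereas miR-379 at the other end of that group summed to 1158 CPM.

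**Figure D1:**
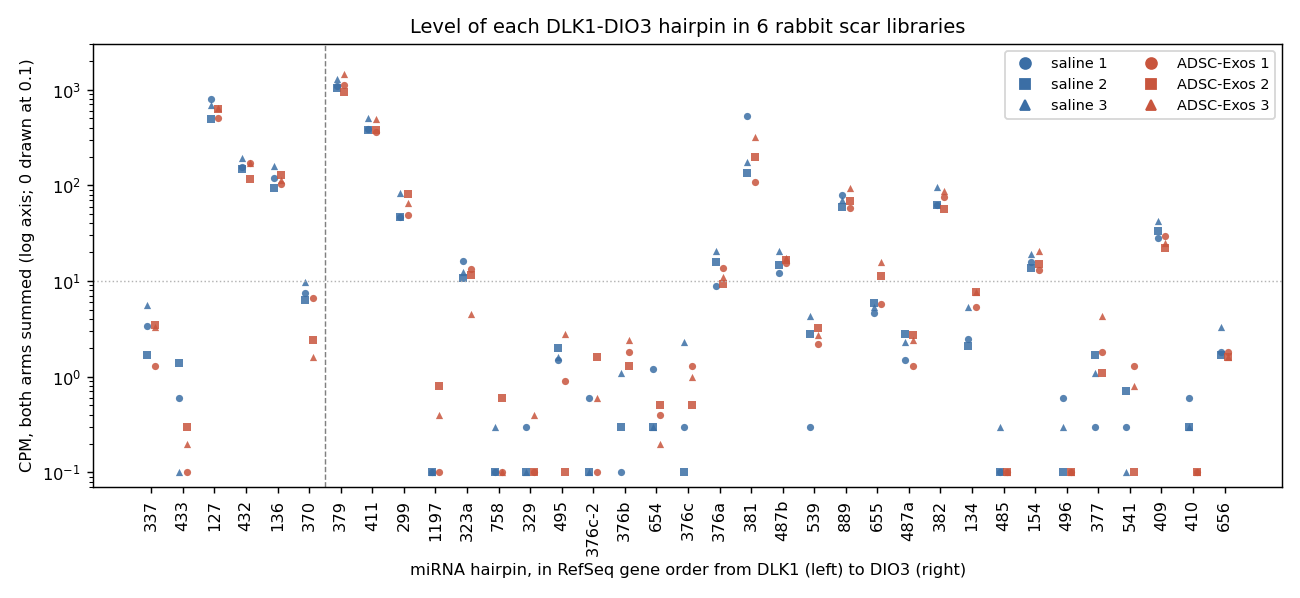
Summed CPM of both arms of each hairpin (log axis, 0 drawn at 0.1) in RefSeq gene order from DLK1 to DIO3, with 1 point per library, saline in blue and ADSC-Exos in red. The dashed line parts the proximal from the distal group and the dotted line marks 10 CPM. miR-379 summed to 1158 CPM on average and miR-410 to 0.200 CPM, and the points of both groups lie together at most hairpins.

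A mean of at least 10 CPM over the 6 libraries was required for testing, and 16 members passed it, from 14 hairpins. Of these, 5 were proximal and 11 distal. The other 43 members, 16 of them averaging 1 to 10 CPM, were described but not tested in the main comparison.

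In the RTL1 group, miR-127-3p measured 774.9, 478.8 and 660.5 CPM in saline libraries 1, 2 and 3 against 491, 602.5 and 617.7 CPM in ADSC-Exos libraries 1, 2 and 3. All 3 ADSC-Exos values lay inside the saline range. The other arm, miR-127-5p, measured 20.3, 14.6 and 26.1 CPM in saline libraries against 19.5, 22.1 and 28 CPM in ADSC-Exos libraries, again overlapping. miR-432-5p, the neighbour of miR-127, measured 154.9, 146.8 and 190.7 CPM in saline libraries against 172.5, 116.6 and 170.5 CPM in ADSC-Exos libraries. miR-136-3p measured 83.8, 75.2 and 137.5 CPM in saline libraries against 90.2, 103.9 and 76 CPM in ADSC-Exos libraries. It was highest in saline 3 and lowest in saline 2 and ADSC-Exos 3, and the groups overlapped. miR-136-5p measured 34.5, 18.1 and 23.3 CPM in saline libraries against 13.7, 24.8 and 36.3 CPM in ADSC-Exos libraries, so that ADSC-Exos held both its lowest and its highest value.

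At the start of the distal group, miR-379-5p measured 1088.8, 1034.1 and 1279.2 CPM in saline libraries against 1121.8, 940.4 and 1466.2 CPM in ADSC-Exos libraries. In mouse, loss of the miR-379/miR-410 cluster disturbs metabolic adaptation at birth. Its neighbour miR-411-5p measured 387.8, 376.8 and 508.7 CPM in saline libraries against 357.9, 381.1 and 488 CPM in ADSC-Exos libraries. Both were highest in saline 3 and ADSC-Exos 3 within their groups. The ratio of miR-411-5p to miR-379-5p ran from 0.319 to 0.405 over the 6 libraries, a 1.27-fold range. miR-299-3p, from the next hairpin, measured 38.2, 42.1 and 76.2 CPM in saline libraries against 43.8, 76.4 and 60.4 CPM in ADSC-Exos libraries, and its ratio to miR-379-5p had a 2.32-fold range.

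Further along, miR-381-3p varied most of the 16 members. It measured 528.5, 135.4 and 177.2 CPM in saline libraries against 107.5, 197 and 319.8 CPM in ADSC-Exos libraries, a 4.92-fold range, with saline 1 far above the other saline libraries. Its share of the locus was 15.7% in saline 1 and 4.02% to 8.93% in the other 5 libraries. miR-889-3p measured 79.5, 59.5 and 70.6 CPM in saline libraries against 57.5, 68.6 and 92.3 CPM in ADSC-Exos libraries. miR-382-5p, which has been linked to kidney fibrosis in mouse, measured 59.1, 58.1 and 92.3 CPM in saline libraries against 74.3, 54.8 and 84.9 CPM in ADSC-Exos libraries. Neither separated the groups, and no other tested member had a range as wide as that of miR-381-3p.

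Among the lower tested members, miR-409-3p measured 24.6, 31 and 40.6 CPM in saline libraries against 29.2, 16.5 and 23.7 CPM in ADSC-Exos libraries, with ADSC-Exos 2 and 3 below all saline libraries and ADSC-Exos 1 among them. miR-323a-3p measured 16, 10.8 and 12.3 CPM in saline libraries against 13.3, 11.6 and 4.5 CPM in ADSC-Exos libraries, where only ADSC-Exos 3 lay below the saline range. Members of the miR-376 group are known for A-to-I editing of their seed in human and mouse brain. miR-376a-3p measured 8.9, 15.7 and 20.2 CPM in saline libraries against 13.7, 9.2 and 10.6 CPM in ADSC-Exos libraries. miR-487b-3p measured 11.7, 14.6 and 20.2 CPM in saline libraries against 14.6, 15.9 and 15.5 CPM in ADSC-Exos libraries. miR-154-5p measured 14.8, 11.5 and 17.9 CPM in saline libraries against 10.2, 13.8 and 20 CPM in ADSC-Exos libraries. The groups overlapped for all 3 of these.

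The study compared exosome-treated with saline-treated scars, and no tested member of the locus passed the test. Of 16 tested members, 6 had a higher and 10 a lower mean log2 level in ADSC-Exos, and 0 passed an adjusted p of 0.05 in limma, adjusted by Benjamini-Hochberg over the 224 miRNAs tested. Across those 224 the share called was 0%, limma-voom on reads recovered from those steps called 0 members too, and in both fits 0 members had an unadjusted p under 0.05, against 3.57% of all tested miRNAs in limma. Over all tested miRNAs, 39.3% had a log2 fold change above 0 and 60.7% one below 0, close to the members' counts. The median log2 fold change of the members was -0.063, beside -0.082 over all tested miRNAs, and it was 0.0012 under median-of-ratios scaling and 0.097 under quantile scaling. In the proximal group 1 was higher and 4 lower, with a median of -0.094, and in the distal group, whose median was -0.034, 5 were higher and 6 lower.

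The adjusted p in limma was 0.996 for all 16, and the groups overlapped in each, where 4.91% of all tested miRNAs had groups without overlap. The lowest unadjusted p among members with lower values belonged to miR-409-3p, at a log2 fold change of -0.46 ± 0.38 (SE), its 95% interval in limma running from -1.32 to 0.39. It was followed by miR-323a-3p at -0.48 ± 0.48 (SE), with an interval of -1.57 to 0.61, and this estimate was -0.047 without ADSC-Exos 3. With single libraries left out, that of miR-409-3p ran from -0.64 to -0.25. Among those with higher values, miR-299-3p had 0.24 ± 0.39 (SE), with an interval of -0.64 to 1.11, and miR-127-5p 0.20 ± 0.38 (SE), with an interval of -0.65 to 1.06. Leaving out single libraries moved miR-299-3p between 0.049 without ADSC-Exos 2 and 0.54 without saline 3, and miR-127-5p came to -0.0047 without saline 2. The abundant members had estimates close to 0. These were 0.034 ± 0.29 for miR-379-5p, -0.14 ± 0.30 for miR-127-3p and -0.053 ± 0.29 for miR-411-5p (SE), and that of miR-411-5p turned to 0.011 under median-of-ratios and 0.11 under quantile scaling. The estimate for miR-381-3p, -0.30 ± 0.57 (SE), depended on single libraries. It was 0.29 without saline 1 and 0.10 without ADSC-Exos 1.

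For 9 of the 16 members both ends of the 95% interval lay within a 2-fold change, against 36.2% of all tested miRNAs. For miR-379-5p the interval ran from 0.651-fold to 1.61-fold, for miR-411-5p from 0.608-fold to 1.53-fold and for miR-127-3p from 0.564-fold to 1.46-fold. The widest, that of miR-381-3p, ran from 0.335-fold to 1.97-fold. With 3 libraries a group, changes inside these intervals cannot be told from no change.

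**Figure D2:**
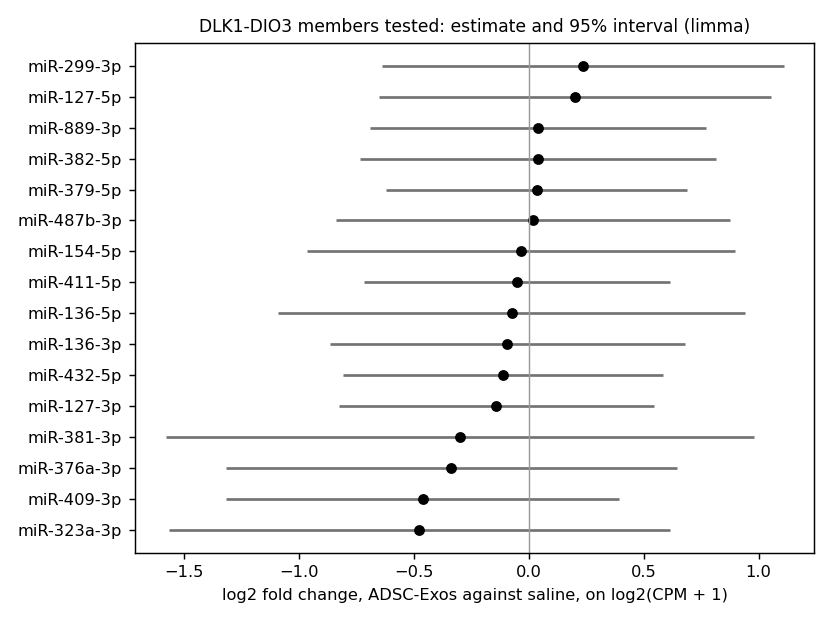
Log2 fold change of the 16 tested members, ADSC-Exos against saline on the log2(CPM + 1) scale, with points for the limma estimate and lines for its 95% interval. All 16 intervals include 0, from miR-323a-3p at -0.48 to miR-299-3p at 0.24.

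Between libraries of the same group, most locus members had a spread below that of a typical miRNA. The SD of log2(CPM + 1) within groups had a median of 0.354 over the 16 members and of 0.472 over the other tested miRNAs, and 4 of 16 members lay above the median of all tested. The steadiest were miR-411-5p at 0.237, miR-379-5p at 0.254 and miR-432-5p at 0.266. The most variable was miR-381-3p at 0.919. This is a description with no test, as members of a cluster are not independent of each other. It uses CPM as deposited, and the other miRNAs were not matched to the members by level.

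Many members were also high or low in the same libraries. In saline, 11 of 16 were highest in saline 3, where 44.6% of all tested miRNAs were highest, and 12 were lowest in saline 2, where 27.7% of all tested were lowest. In ADSC-Exos, 9 of 16 were highest in ADSC-Exos 3 against 23.7% of all tested, and 9 were lowest in ADSC-Exos 1 against 29.5%. On the deposited CPM scale, the members went the other way from the rest in the latter libraries. The members' median deviation from the group mean was 0.22 log2 units in ADSC-Exos 3 and -0.12 in ADSC-Exos 1, while that of the other tested miRNAs was -0.19 and 0.17. Median-of-ratios scaling divides ADSC-Exos 3 by 0.891 and ADSC-Exos 1 by 1.101, which shifts the rest toward their group mean. These deviations were not computed under other scalings. The count for saline 2 depended on scaling, with 7 members lowest there under median-of-ratios and 8 under quantile scaling, where the shares of all tested were 15.6% and 17%. The other 3 counts stayed between 9 and 12. Under median-of-ratios scaling, 11 members against 42.9% of all tested were highest in saline 3, 12 against 35.3% highest in ADSC-Exos 3 and 10 against 39.3% lowest in ADSC-Exos 1. Under quantile scaling these 3 counts were the same and the shares were 38.4%, 34.8% and 37.9%. miR-323a-3p and miR-136-3p were exceptions in ADSC-Exos 3, where both were at their lowest of the group.

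**Figure D3:**
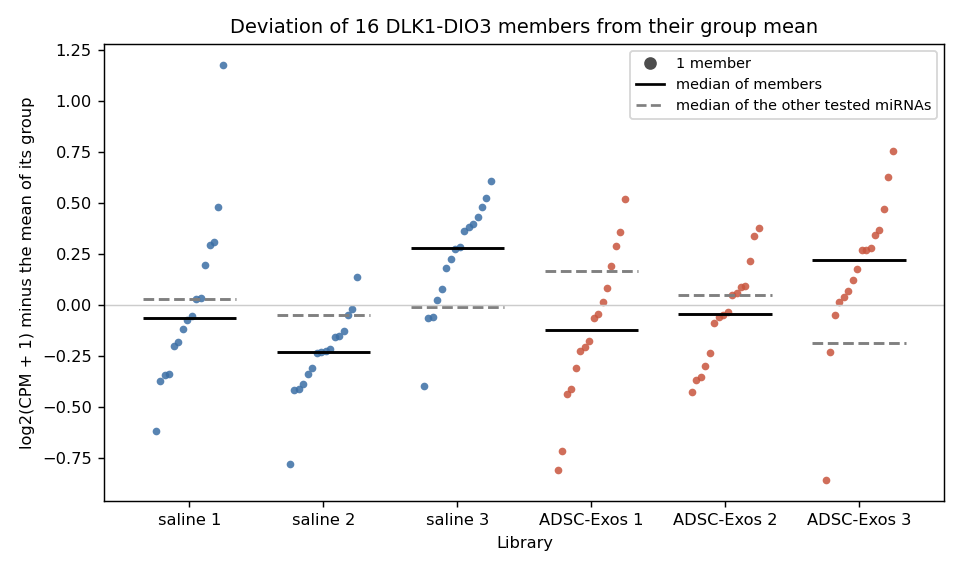
Deviation of each of the 16 tested members from the mean of its own group, in log2(CPM + 1), by library, with a black line at the median of the members and a dashed grey line at the median of the other tested miRNAs. The members lie mostly above 0 in saline 3 and ADSC-Exos 3, where their medians are 0.28 and 0.22, and mostly below 0 in saline 2, at -0.23. The highest point is miR-381-3p in saline 1.

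The summed level of the fibroblast-rich miRNAs miR-199a and miR-214 ran in a like order, although not all of their single rows did. Their 4 rows, nearly all miR-199a-3p and miR-199a-5p, summed to 130790, 117972 and 143972 CPM in saline 1, 2 and 3 against 120911, 113480 and 164725 CPM in ADSC-Exos libraries 1, 2 and 3. Saline 3 and ADSC-Exos 3 were the highest of their groups for this sum and for the sum of the locus. Of the single rows, miR-199a-3p measured 120853, 102925 and 113922 CPM in saline libraries against 97496, 95046 and 148230 CPM in ADSC-Exos libraries, and was highest of saline in saline 1. miR-199a-5p measured 9865, 15002 and 30001 CPM in saline libraries against 23383, 18390 and 16382 CPM in ADSC-Exos libraries, and was lowest of its groups in saline 1 and ADSC-Exos 3. miR-214-3p was highest in saline 1 and ADSC-Exos 3 and miR-214-5p in saline 3 and ADSC-Exos 3, with no value of either above 76.4 CPM. Per 1000 CPM of the fibroblast rows, the locus stood at 25.8, 21.8 and 23.7 CPM in saline against 22.1, 23.9 and 21.7 CPM in ADSC-Exos, a 1.19-fold range, which was 1.14-fold without miR-381-3p. The range of the same ratio was 1.85-fold for leukocyte rows, 2.05-fold for epithelial rows, 2.78-fold for neuronal rows, 3.85-fold for both skeletal and smooth muscle rows, 5.13-fold for cartilage rows and 8.19-fold for erythroid rows. The summed fibroblast rows alone had a 1.45-fold range and the locus a 1.39-fold range. Alone, the leukocyte rows had a 1.51-fold, the epithelial rows a 1.55-fold and the neuronal rows a 2.07-fold range. The skeletal muscle rows alone had a 3.90-fold, smooth muscle a 4.85-fold, cartilage a 5.20-fold and erythroid rows a 7.81-fold range. A list with a wide range of its own gives a wide range of its ratio to the locus. These ratios of sums are a description of the 6 libraries, and the part of cell composition in them was not tested.

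**Figure D4:**
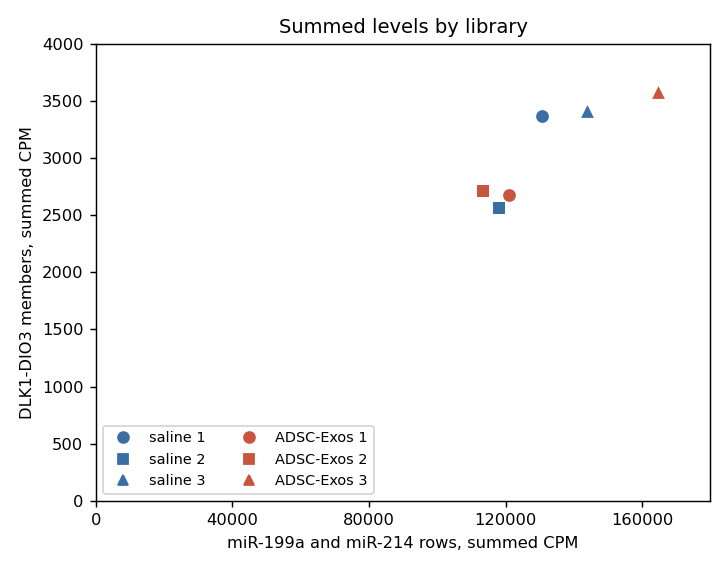
Summed CPM of the 59 locus members against the summed CPM of the 4 miR-199a and miR-214 rows, with 1 point per library, saline in blue and ADSC-Exos in red. Saline 1, saline 3 and ADSC-Exos 3 lie at 3372 to 3581 CPM of the locus and the other libraries at 2568 to 2710 CPM.

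Each hairpin can yield a mature miRNA from either arm, and the 2 arms have different targets. Both arms had a row for 24 of the 35 hairpins, and for 12 of these the arms summed to at least 10 CPM. The main arm was the higher in all 6 libraries for all 12, the 3p arm in 8 and the 5p arm in 4, which were miR-379, miR-411, miR-382 and miR-154. The minor arms of miR-411, miR-381, miR-889 and miR-376a had no more than 2 reads in any library, under the limit of 3 reads, so that no ratio is given for these hairpins. Among the others, miR-379-5p was 453-fold and miR-127-3p 27.8-fold above the other arm. The most balanced was miR-136, whose 3p arm was 3.76-fold above the 5p arm and held 70.8%, 80.6% and 85.5% of the hairpin in saline and 86.8%, 80.7% and 67.7% in ADSC-Exos. The 3p share of miR-136 was lowest of each group in saline 1 and ADSC-Exos 3, the libraries where its 5p arm was highest.

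No change in arm use passed the test. The log2 ratio of the 5p to the 3p arm was tested in limma over 110 hairpins with both arms present, of which 0% passed an adjusted p of 0.05 and 0.909% had an unadjusted p under 0.05. None of the 7 locus hairpins passed at either level. The estimate farthest from 0 was that of miR-382, at 0.79 ± 0.43 (SE), with a 95% interval from -0.13 up to 1.72 (adjusted p = 0.963, limma). This rank depended on the pseudocount, since the estimate was 1.06 with a pseudocount of 0.1 but 0.25 with 10, closer to 0 than that of miR-299 at -0.34. Without ADSC-Exos 1 it was 0.62, beside 0.80 for miR-409 and -0.77 for miR-299. Its minor arm miR-382-3p measured 2.8, 3.8 and 4.6 CPM in saline libraries against 1.3, 1.9 and 2.2 CPM in ADSC-Exos libraries, without overlap. In reads, saline had 9, 11 and 18 and ADSC-Exos 3, 7 and 11.

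**Figure D5:**
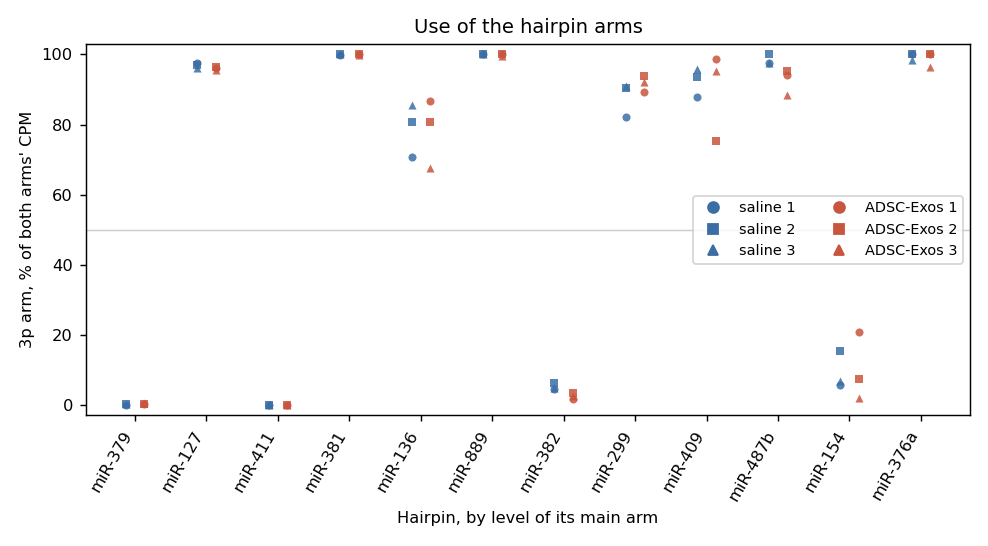
Share of the 3p arm in the summed CPM of both arms, in %, for the 12 hairpins with at least 10 CPM, with 1 point per library, saline in blue and ADSC-Exos in red. miR-379, miR-411, miR-382 and miR-154 lie near the bottom and the others near the top. miR-136 spreads from 67.7% to 86.8%, miR-409 from 75.34% to 98.65% and miR-154 from 1.96% to 20.93%.

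Among the 43 members under the level filter, the highest was miR-655-3p, at 4.6, 5.9 and 5.4 CPM in saline against 5.8, 11.3 and 15.9 CPM in ADSC-Exos. It was above every saline library in ADSC-Exos 2 and 3. miR-299-5p, the minor arm of its hairpin, measured 8.3, 4.5 and 7.4 CPM in saline libraries against 5.3, 4.9 and 5.1 CPM in ADSC-Exos libraries. miR-370-3p, the last of the proximal group, measured 6.5, 6.3 and 8.7 CPM in saline libraries against 6.6, 1.9 and 1.4 CPM in ADSC-Exos libraries, where only ADSC-Exos 2 and 3 were low. miR-134-5p, which limits dendritic spine growth in rat neurons through Limk1, measured 2.5, 2.1 and 5.4 CPM in saline libraries against 5.3, 7.6 and 7.6 CPM in ADSC-Exos libraries. It is named after its values were seen, and ADSC-Exos 1 overlapped saline 3.

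Groups did not overlap for 4 of these 43 members, against 4.94% of all miRNAs under the filter. Besides miR-382-3p they were miR-376b-5p and miR-487b-5p, higher in ADSC-Exos, and miR-410-5p, lower, all named after their values were seen. miR-376b-5p had 0, 1 and 3 reads in saline and 4, 5 and 12 in ADSC-Exos. miR-487b-5p had 1, 0 and 2 reads in saline and 2, 3 and 10 in ADSC-Exos. miR-410-5p had a single read in each saline library and 0 in each ADSC-Exos library, all under the limit of 3 reads. When every miRNA was tested without a level filter, 0 members passed an adjusted p of 0.05 in limma, the lowest being 0.995, and 3 members had an unadjusted p under 0.05, beside 3.43% of all 467.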

How the data were processed

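Small RNA libraries were made from rabbit scar tissue, per the labels' protocols. Their processing used, per the submitters' processing notes, DESeq2 1.30.1, HTSeq 2.0.3, STAR 2.7.6a, Trimmomatic 0.40 and FastQC 1.0.0, whose roles are not stated. Neither the genome build nor the miRNA annotation is given in the sources used here, and nothing says how reads shared by related miRNAs were assigned, so close relatives such as the miR-376 rows are uncertain. The authors deposited CPM values to 1 decimal. These are relative to the library total, so a rise of an abundant miRNA lowers the others.

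The members, lists and tests were chosen with earlier results of these data known. The total of each library was taken as the number for which values are multiples of 1 read within 0.05 CPM, which held for 2378 of 2382 values above 0 (99.83%), although 22.6% to 51.0% of arbitrary values would meet this tolerance. The main test was limma 3.58.1 (limma-trend, R 4.3.3) on log2(CPM + 1) with group as the only term, two-sided, with Benjamini-Hochberg adjustment over all miRNAs that averaged 10 CPM or more. Fold changes on this scale understate changes of low miRNAs. Arm ratios were fitted in limma without the trend option, with the same group term and adjustment. This covered hairpins with a summed mean of at least 10 CPM and at least 1 CPM in each arm. Both fits share their code, which was tested on simulated data with the settings of the main test only. Named with full values were all tested members and the highest of the rest. The order of libraries within groups under other scalings was added after seeing the data. Planned edgeR and DESeq2 fits were not run, since only 43.4% to 89.2% of low values lay within 0.1 of a whole read after rounding to 1 decimal, and no mature sequence was used.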

Additional observations from a re-analysis of the deposited data

How the results depend on the processing

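No member passed under any of the alternatives run: limma-voom on reads, quantile and median-of-ratios scaling, a minimum mean of 50 CPM or none, a pseudocount of 0.1 or 10, identical rows counted once, the replicate block and each library left out. Planned edgeR and DESeq2 fits were not run. The count over all miRNAs stayed at 0 except when a library was left out, where it ranged from 0 to 4, and that of arm ratios from 0 to 1, with no member among them. With the replicate block the count was 0 and the members' median -0.063. Libraries with the same number did not deviate together (correlations of -0.114, -0.018 and -0.127 over 224 miRNAs). The correlations of libraries with different numbers ran from -0.237 to 0.235. With 3 libraries a group, such values cannot settle whether the number pairs them. The median stayed between -0.19 and 0.069 over leave-outs and the ratio of summed levels between 0.863 and 1.01, with 1.02 under median-of-ratios scaling. Signs of estimates were often not stable, and 12 of 16 members turned sign in some setting. These included miR-381-3p and miR-127-5p, whose main estimates were -0.30 and 0.20. The cause was not tested. Under median-of-ratios scaling miR-154-5p came to 0.029 and miR-411-5p to 0.011. Under quantile scaling miR-136-3p came to 0.00059, miR-154-5p to 0.15, miR-411-5p to 0.11 and miR-432-5p to 0.085. The arm ratio of miR-409 came to -0.20 with a pseudocount of 0.1 and that of miR-154 to -0.0070 with 10. Over leave-outs, log2 fold changes ran from -0.33 to 0.013 for miR-127-3p, -0.0047 to 0.39 for miR-127-5p, -0.26 to 0.17 for miR-136-3p, -0.39 to 0.29 for miR-136-5p, -0.27 to 0.18 for miR-154-5p, -0.14 to 0.18 for miR-379-5p, -0.69 to 0.29 for miR-381-3p, -0.094 to 0.26 for miR-382-5p, -0.19 to 0.084 for miR-411-5p, -0.21 to 0.072 for miR-432-5p, -0.16 to 0.21 for miR-487b-3p, 0.049 to 0.54 for miR-299-3p, -0.74 to -0.047 for miR-323a-3p, -0.65 to -0.097 for miR-376a-3p and -0.14 to 0.20 for miR-889-3p. Changes of the arm ratio ran from -0.41 to 0.39 for miR-136, -0.49 to 0.66 for miR-154, -0.53 to 0.11 for miR-379 and -0.69 to 0.80 for miR-409.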
